A study of Anopheles gambiae with 5 samples.

Results

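The 8 genes described here, of the mosquito complement-like system were followed through the midgut maps of a pair of histone marks, out of 13102 annotated genes with an assembled model. They are 4 thioester-containing protein genes (TEP1, TEP3, TEP4 and TEP15) and 4 leucine-rich repeat genes (LRIM1, APL1A, APL1B and APL1C). They were picked by their identifiers in the annotation, not by any measured value, and all 8 were found in the files. TEP1 is a thioester protein related to vertebrate complement factor C3. It circulates in the hemolymph and binds the surface of malaria parasites that have crossed the midgut wall. LRIM1 and APL1C form a complex that keeps the mature form of TEP1 in circulation, and these proteins are known mainly as products of hemocytes and the fat body rather than of the gut epithelium. H3K27me3 is the mark laid down by Polycomb complexes and is usually found at silent genes, whereas H3K27ac is usually found at active promoters and enhancers.

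The chromatin came from dissected midguts of Anopheles gambiae adult females of the Kisumu strain, 6 to 8 days old and kept on sugar solution. There was 1 ChIP library for H3K27ac (antibody ab4729), 1 for H3K27me3 (a Millipore antibody) and 1 input library against which the authors called peaks, and the peak files hold no read counts, so the depth behind each peak is unknown here. RNA from midguts and from salivary glands of such females gave the merged transcript set whose models are used here. With 1 library per mark there are no replicates, so all counts and distances below are descriptions without an error or a test. The cell types of the midgut were not separated, and the tissue label cannot be checked from peak positions.

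None of the 8 genes carried H3K27ac, 5 carried H3K27me3 and 3 carried neither mark. The genes with H3K27me3 were TEP3, TEP4, TEP15, LRIM1 and APL1C. The unmarked genes were TEP1, APL1A and APL1B. The authors filtered reads of repetitive sequence, and how much of these genes the remaining reads could reach was not examined. A gene was counted as marked when a peak overlapped it, or the 200 bp on either side, by at least 1 bp. By the same rule 37.0% of all annotated genes carried H3K27ac, 28.8% carried H3K27me3 and 37.5% carried neither. The median length was 3564 bp for the members against 2262.5 bp for all annotated genes, although LRIM1, APL1A and APL1B were shorter than the latter. Among the 7293 annotated genes between the shortest and the longest member in length, 41.9% carried H3K27ac and 28.1% carried H3K27me3. H3K27ac was called with MACS as narrow peaks, and H3K27me3 with SICER as islands made of 200 bp windows, so a contrast between the marks is also a contrast between callers.

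The place and extent of H3K27me3 differed among the marked genes. The share of the gene under islands was 100% in LRIM1, 92.63% in TEP3, 90.59% in TEP15, 65.13% in TEP4 and 32.11% in APL1C. The median over the 3773 annotated genes with H3K27me3 was 80.3%, so 3 members lay above it and 2 below. At least 50% of the body was covered in 4 members, against 19.8% of all annotated genes. With only islands at or above the median score, or only those of 2000 bp or longer, the share fell to 35.45% in TEP4 and to 0% in LRIM1 and APL1C. The mark lay within 200 bp of a start in 3 members, TEP3, TEP15 and LRIM1, against 21.3% of all annotated genes. TEP4 and APL1C were thus marked in the body or at the end, and not at the annotated start.

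**Figure D1:**
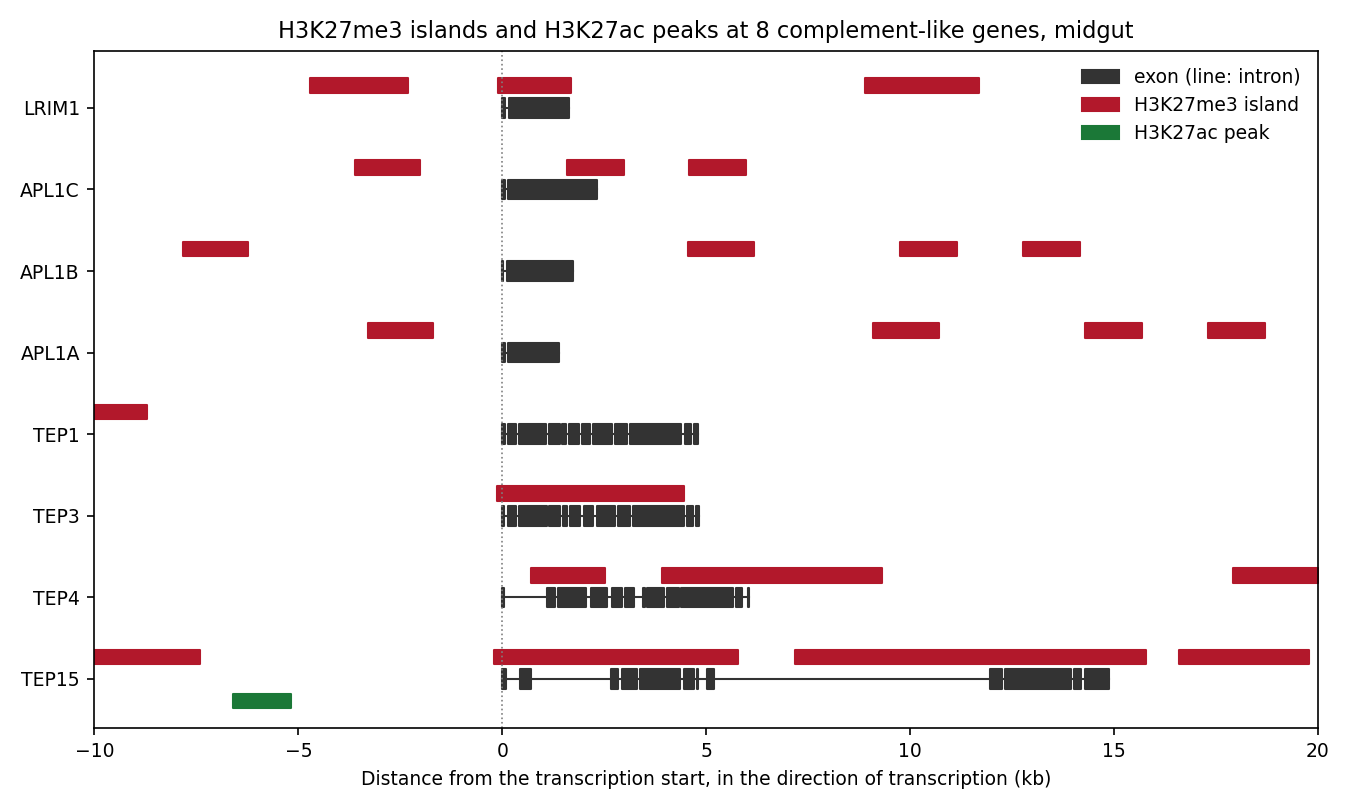
Exons (black blocks), H3K27me3 islands (red) and H3K27ac peaks (green) of the 8 members, plotted by distance in kb from the transcription start with transcription running to the right. Islands cover the start of LRIM1, TEP3 and TEP15, begin inside TEP4 and APL1C, and miss TEP1, APL1A and APL1B. The one H3K27ac peak in view lies 5168 bp upstream of TEP15.

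Among the thioester genes, TEP1 (AGAP010815, chromosome 3L, 11202091 to 11206882 of AgamP4, minus strand, 12 exons) had no base under either mark. Its flanks were also free of both marks up to 5000 bp on each side. The nearest island was the one on its neighbour TEP3, whose nearer edge lay 8718 bp upstream of the TEP1 start. The nearest island on the other side lay 60491 bp downstream. TEP1 therefore sat in a stretch of 74001 bp without H3K27me3, from 11141600 to 11215600, which it shared with AGAP010813 and AGAP010814. AGAP010814, 11628 bp from TEP1 and 4759 bp long, carried neither mark.

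TEP3 (AGAP010816, chromosome 3L, 11215246 to 11220064, minus strand, 12 exons) is separated from TEP1 by 8363 bp on the same strand and has nearly the same length, 4819 bp against 4792 bp. In contrast to TEP1, it was nearly filled by 1 island of 4599 bp. The island began 135 bp before the TEP3 start, covered exons 1 to 10 whole, and stopped 355 bp before the end of the gene, so exons 11 and 12 were free. Upstream of TEP3, 67.5% of the first 200 bp was under H3K27me3, and downstream none was. These neighbours thus differed in the mark over most of their length, and the edge of the mark that faces TEP1 fell inside TEP3.

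TEP4 (AGAP010812, chromosome 3L, 11001288 to 11007349, plus strand, 12 exons) lies 194741 bp from TEP1 and held 2 islands. The first, of 1799 bp, ran from 713 bp to 2511 bp after the start and left exon 1 free. The second, of 5399 bp, covered the last 2149 bp of TEP4 and went on for 3250 bp past its end, so that 39.8% of this island lay in the gene. Between them exons 5, 6 and 7 were free, exons 4 and 8 were partly covered, and exons 2, 3 and 9 to 12 were covered whole. The downstream flank of TEP4 was under H3K27me3 over all of the first 1000 bp, whereas the upstream flank had none up to 5000 bp. TEP4 also had an alternative assembled start at 11002017, 729 bp inside the gene, in a transcript of class "j", which shares at least 1 splice junction with the annotation but has a new structure. That start lay just within the first island, which begins at 11002001, so it was nearer to the edge than the 200 bp window of the islands. The annotated start lay 712 bp before this island.

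TEP15 (AGAP008364, chromosome 3R, 10061307 to 10076188, minus strand) is the longest member at 14882 bp. It was present only as 2 transcripts of class "j", so its span is that of the assembly and not of the annotation. Both of its assembled starts, at 10076188 and 10075623, lay in an island. That island, of 5999 bp, reached 211 bp upstream of the start, and the other, of 8599 bp, ran 906 bp past the end into AGAP008363. All 12 exons of TEP15 were covered whole, and its uncovered bases were all intronic. Its longest intron, of 6765 bp, was covered over 79.29%.

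Among the leucine-rich repeat genes, LRIM1 (AGAP006348, chromosome 2L, 30329656 to 30331296, minus strand, 2 exons) was the only member with every base under H3K27me3. Its island reached 103 bp before the start and 55 bp past the end, so the island was little longer than the gene. LRIM1 lies inside an intron of 67677 bp of AGAP006347, on the same strand. This host gene is 164588 bp long and had 6.194% of its length under H3K27me3. The islands next to LRIM1 lay 2304 bp upstream and 7256 bp downstream, both within the host. Since the sequence of LRIM1 is also part of its host, the island cannot be assigned to one of them.

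APL1C (AGAP007033, chromosome 2L, 41257850 to 41260185, minus strand, 2 exons) was marked only at its end. Its island, of 1399 bp, covered the last 750 bp of exon 2 and a further 649 bp downstream. The start of APL1C, its exon 1 and its intron were free, and the start lay 1585 bp from the island. APL1B (AGAP007035, 41266619 to 41268364) and APL1A (AGAP007036, 41271509 to 41272901), close relatives of APL1C on the same strand and also with 2 exons, had no mark. Their starts lay 4564 bp and 1699 bp from the nearest island. The 200 bp and 1000 bp flanks of APL1A and APL1B were free of both marks.

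**Figure D2:**
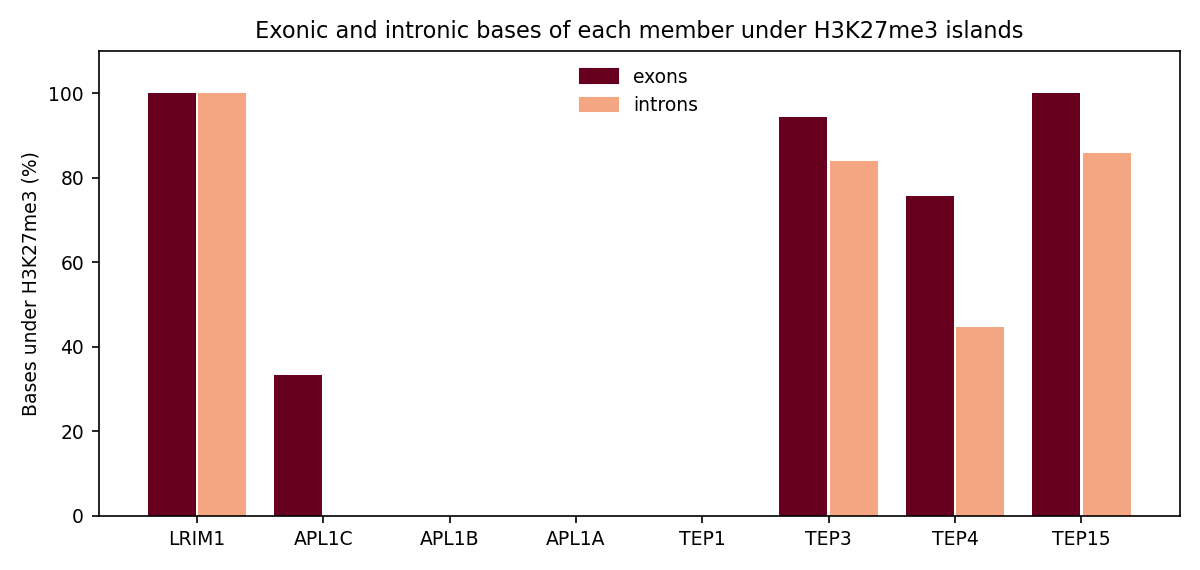
Share of exonic (dark) and intronic (light) bases of each member under H3K27me3 islands, in percent. Exons of TEP4 were covered over 75.67% and its introns over 44.55%, and TEP1, APL1A and APL1B stand at 0.

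The exonic share under H3K27me3 was equal to or above the intronic share in the 5 marked members, but these shares were not set beside those of other genes. The exonic and intronic shares were 94.44% and 83.84% in TEP3, 75.67% and 44.55% in TEP4, and 100% and 85.81% in TEP15. LRIM1 had 100% of each. In APL1C, 33.29% of exonic bases and none of its 83 intronic bases were covered, since its intron lies near the start and its island at the end. The introns of LRIM1, the APL1 genes, TEP1 and TEP3 are short, at most 104 bp, so there the contrast rests on few bases. Islands made of 200 bp windows cannot separate such introns from the exons beside them.

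The 7 islands on the members ranged from 1399 bp to 8599 bp in length and from 129 to 853 in score. The files do not define this score, which was compared only within the list. The island on APL1C stood at the 20.3 percentile of all 12939 islands by score, and that on LRIM1 at the 27.5 percentile. The islands on TEP4 stood at the 31.6 and 75.7 percentiles and that on TEP3 at 69.0. The islands on TEP15, at the 81.5 and 87.3 percentiles, had the highest scores of the set. Score per kb spanned only 84.5 to 105 over these 7 islands, with a median of 103 over all islands, so their scores differed mainly with length. The marks on APL1C and LRIM1 thus rested on short islands of low score, and those on TEP3 and TEP15 on long ones.

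At the starts themselves, 28.3% of all annotated genes lay under H3K27ac and no member did, and 19.2% lay under H3K27me3 with 3 members among them. At 1000 bp inside the gene, 4 members lay under H3K27me3 against 19.0% of all genes. At 1000 bp upstream no member did, against 14.9% of genes. At 3000 bp upstream 3 members did, LRIM1, APL1C and APL1A, against 17.5%, in each case under a separate island that touches another gene.

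The members stood far from H3K27ac. The gap from the gene to its nearest H3K27ac peak was 104729 bp for LRIM1, 105785 bp for TEP3, 118967 bp for TEP1, 200546 bp for APL1C, 209315 bp for APL1B, 214205 bp for APL1A and 217341 bp for TEP4. TEP15 was the exception at 5168 bp. The median gap was 2784 bp over all annotated genes and 11699.5 bp over the genes that no H3K27ac peak overlapped. As many as 7 of the 8 members lay more than 100000 bp from H3K27ac, against 6.56% of all annotated genes, a limit set after these gaps were seen. Those 7 members occupy only 3 places in the genome, since TEP1, TEP3 and TEP4 share 1 stretch without H3K27ac and the APL1 genes share another. These stretches were 541903 bp long around the TEP genes, 432129 bp around the APL1 genes and 282528 bp around LRIM1, against 26389 bp around TEP15.

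**Figure D3:**
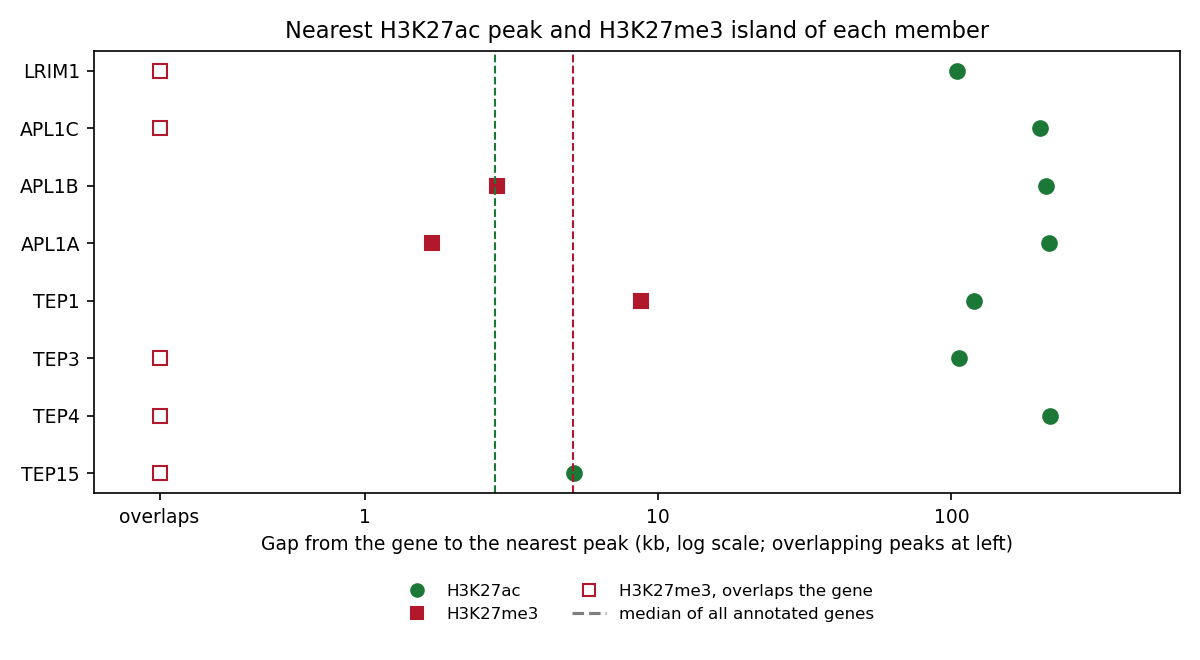
Gap in kb, on a log scale, from each member to its nearest H3K27ac peak (green circles) and H3K27me3 island (red squares, open where the island overlaps the gene). Dashed lines mark the medians over 13102 annotated genes, 2784 bp for H3K27ac and 5148.5 bp for H3K27me3. The green circles of 7 members lie beyond 100 kb, and TEP15 has it at 5168 bp.

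Within 50 kb of either side of the gene there were 1 to 4 other annotated genes around TEP1, TEP3, TEP4 and LRIM1, and 8 around each APL1 gene. The median was 9 over all genes, and 17 lay around TEP15. Among the 6117 annotated genes with at most 8 others in this window, 13.1% lay more than 100000 bp from H3K27ac, 30.6% carried H3K27ac and 32.5% carried H3K27me3. Those genes had a median of 5 others, more than TEP1, TEP3, TEP4 and LRIM1 had. The part of gene density in the long gaps was not tested. The windows of the 7 members more than 100000 bp from H3K27ac held no H3K27ac peak, which follows from those gaps. Such empty windows were found for 13.3% of all genes. H3K27me3 was present in all 8 windows, but only 9.19% of all genes had a window without it. H3K27me3 covered 9.158% of the window around TEP1, 8.86% around TEP4, 10.03% around LRIM1, 16.47% around TEP3 and 16.45% to 18.56% around the APL1 genes. The median over all genes was 17.6%. Thus the windows without H3K27ac were not windows filled with H3K27me3, and of these 7 only that of APL1C held more of it than the median.

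The H3K27ac peaks at the ends of the TEP stretch had low scores. On the lower-numbered side the peak, of 2095 bp, touched HPX15, a heme peroxidase gene (AGAP013327), with a score of 57.61. On the other side a peak of 1762 bp touched AGAP010820 with a score of 58.23. The MACS score rises with the significance of a peak, and these stood at the 4.91 and 5.21 percentiles of the 6639 H3K27ac peaks, whose median was 244.41. Between them lay a run of 11 genes without H3K27ac, AGAP010810 to AGAP010819 with AGAP013706, of which 4 carried H3K27me3 and 7 neither mark. TEP1 was thus among the larger group of this run and TEP3 and TEP4 among the smaller. From TEP4 to TEP3, a span of 218777 bp, 7 islands covered 9.168%, and 5 of those lay wholly or partly in the space between TEP4 and TEP1.

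The APL1 genes lie in a span of 15052 bp together with AGAP007034, of which 15.61% was under 2 islands. AGAP007034, between APL1C and APL1B, was covered over 100% of its 1251 bp by an island of 1599 bp. AGAP007037, 1705 bp from APL1A on the other side, was covered over 98.21% by another island of 1599 bp. APL1A and APL1B sat together in the 10801 bp between these islands, from 41263800 to 41274600. Marked and unmarked genes thus lay within a few kb of each other here, and none of them carried H3K27ac. The nearest H3K27ac peaks lay at AGAP007029, with a score of 853.0 at the 81.9 percentile, and at an unannotated transcript on the other side, with a score of 74.95 at the 13.9 percentile. The run of genes without H3K27ac around the APL1 genes held 23 genes, AGAP007030 to AGAP007052, of which 18 carried H3K27me3 and 5 neither mark. APL1A and APL1B were 2 of those 5.

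An unannotated transcript lay 747 bp upstream of the APL1C start, on the plus strand and thus pointing away from APL1C. It had 1 exon of 860 bp, at 41260933 to 41261792, and no mark. Class "u", which this transcript had, denotes a locus with no annotated gene. A transcript antisense to AGAP007034, of 705 bp, ended 2413 bp from APL1B and was under H3K27me3 over 42.41%. It ran from 41263501 to 41264205 and overlapped AGAP007034 only up to 41263522, so most of it lay outside that gene. These models come from the merged midgut and salivary gland set, and their presence was not read as expression in midgut.

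Around LRIM1 the run without H3K27ac had only 3 genes, the host AGAP006347, LRIM1 itself and AGAP006349, since the host is so long. The H3K27ac peak on the upstream side, 104729 bp from LRIM1, had 830 bp and a score of 75.49, at the 14.2 percentile. It lay in AGAP006350. Class "j" transcripts of the host began under this same peak, at 30436747, whereas the annotated host start lay 95616 bp from H3K27ac. The peak on the downstream side lay in AGAP006346, 176158 bp away, with a score of 764.38. So the host of LRIM1 had an assembled start under H3K27ac, and LRIM1 had none near.

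TEP15 was the only member with H3K27ac within 50 kb, on both sides. A peak of 1432 bp with a score of 212.74 lay 5168 bp upstream, in AGAP008366, and a peak of 1049 bp with a score of 67.01 lay 6339 bp downstream, in AGAP008362. With only peaks at or above the median H3K27ac score, or only those of 2000 bp or longer, the nearest peak lay 16253 bp from TEP15. Within 50 kb of TEP15 there were 5 H3K27ac peaks over 12.77% of the window, against a median of 9.48% for all genes. H3K27me3 covered 49.52% of the same window, against 17.6%. Of the 17 other genes there, 9 carried H3K27ac and 6 carried H3K27me3. H3K27me3 took in AGAP008363, only 143 bp away, over 61.27% of its length and AGAP008360 over 86.49%. A further island of 9199 bp, at the 94.1 percentile by score, lay 7412 bp upstream of TEP15. TEP15 thus lay between 2 H3K27ac peaks 26389 bp apart and was itself under H3K27me3 over 90.59%.

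**Figure D4:**
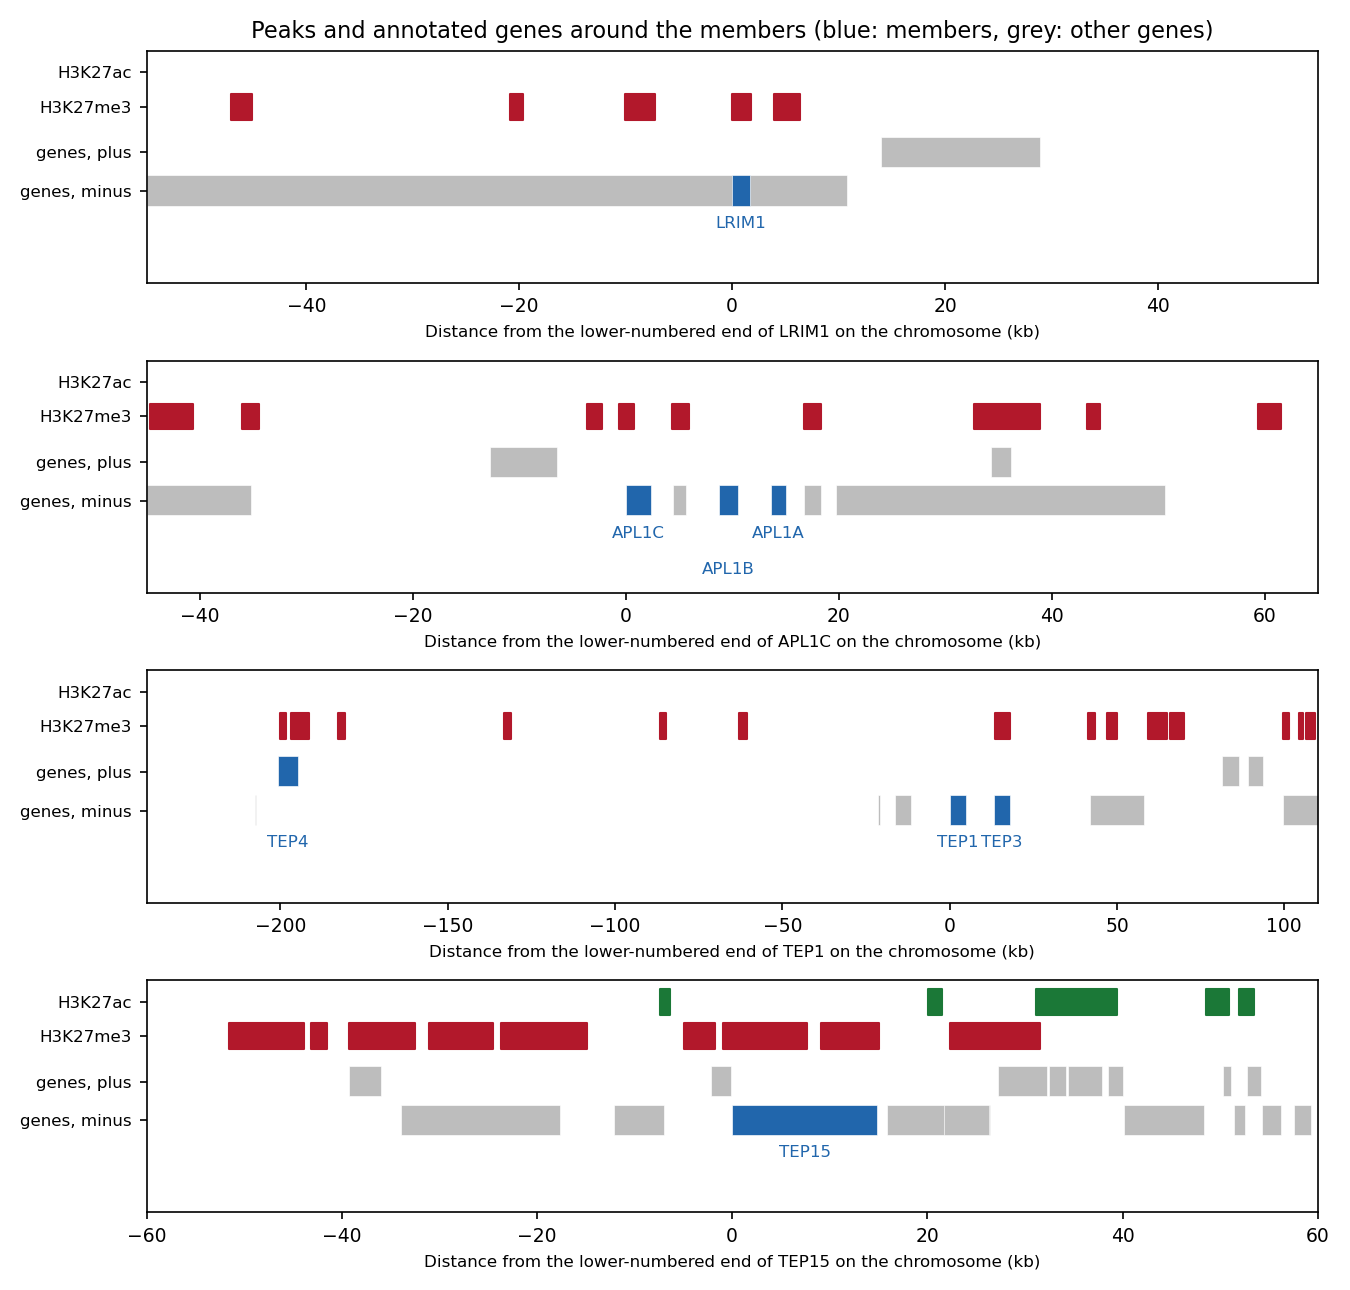
H3K27ac peaks (green), H3K27me3 islands (red), members (blue) and other annotated genes (grey, by strand) around LRIM1, the APL1 genes, the TEP1, TEP3 and TEP4 stretch and TEP15, plotted by distance in kb along the chromosome. H3K27ac appears only in the TEP15 panel, with 5 peaks, and APL1A, APL1B and TEP1 lie in gaps between islands.

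On the 3 chromosome arms that hold the members, H3K27ac was carried by 38.3% of genes on 2L, 35.2% on 3L and 37.1% on 3R, and H3K27me3 by 29.6%, 27.6% and 29.3%. The median gap to H3K27ac was 2031 bp for genes on 2L, 3326 bp on 3L and 2976 bp on 3R. No H3K27ac peak lay within 50 kb of 8.84%, 12.1% and 14.3% of the genes on these arms.

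Of the other genes on the study's list of pathogen-interaction genes, 55 had a model, of which 20 carried H3K27ac, 23 carried H3K27me3 and 14 neither. Both marks were carried by 2 of them. H3K27ac was thus on 36.4% of the list and H3K27me3 on 41.8%. Of all annotated genes, 37.0% carried H3K27ac, 28.8% H3K27me3 and 37.5% neither. The members had 0, 5 and 3 of 8. Of the 55, 5 lay more than 100000 bp from H3K27ac, against 6.56% of all annotated genes. All 5 were prophenoloxidase genes, which encode melanization enzymes of the hemolymph. As a family the 9 prophenoloxidase genes resembled the members, with none under H3K27ac, 7 with H3K27me3 and gaps of 23700 bp to 443946 bp to H3K27ac. The largest gap is that of a gene on sequence not placed on a chromosome arm (UNKN), so it may not be a distance in the genome. The others beyond 100000 bp lie together on 2L, between 7441521 and 7457965, and are thus 1 place. That family was singled out after its values were seen. The cecropin and defensin genes, which encode antimicrobial peptides, were mixed, with 3 of 9 under H3K27ac and 5 of 9 under H3K27me3. CEC1 was covered by H3K27ac over 100% and CEC2 by H3K27me3 over 100%. A further cecropin gene carried both marks, with 100% under H3K27ac and 77.0% under H3K27me3. In the signalling pathways that control them, CACTUS, the inhibitor in the Toll pathway, was covered by H3K27ac over 100%, and CASPAR, a negative regulator in the IMD pathway, over 42.23%. REL2, the transcription factor of the IMD pathway, was covered over 16.72%, and REL1, that of the Toll pathway, carried neither mark with H3K27ac 510 bp away. Of further genes linked to TEP1 function, only NOX5, an oxidase, and Vg, the yolk protein vitellogenin, could be matched to identifiers. NOX5 had 74.56% of its length under H3K27me3 with H3K27ac 641 bp away, and Vg had 81.71% with H3K27ac 63762 bp away.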

How the data were processed

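ChIP-seq peaks of H3K27ac and H3K27me3 from midguts, 1 library each, and a merged transcript set from midgut and salivary gland RNA, were used. The authors mapped ChIP reads of the Kisumu strain to the AgamP4 reference (Bowtie 1.0.0), filtered reads of repetitive sequence and called peaks against input with MACS 1.4 for H3K27ac and SICER (version not given in the sources used here) for H3K27me3. The deposited score of each peak is that of its caller, from 50.02 to 3233.06 for H3K27ac and from 39 to 23492 for H3K27me3, and was compared only within its list. How much of each member the filtered reads could reach was not examined. The authors assembled transcripts with TopHat2 2.0.10 and Cufflinks 2.1.1. Expression values and the input were not used here.

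Each gene was given the span of its transcripts of class "=" (same structure as the annotation, 11868 genes), otherwise of class "j" (1036) or "o" (198, other exonic overlap). Peak starts were shifted to count from 1. A gene was marked with an overlap of at least 1 bp including flanks of 200 bp. The scripts, in Python 3.11.15 with numpy 2.4.6, pandas 2.3.3 and matplotlib 3.10.9, were tested on simulated data. Other peak thresholds, peak lengths, overlaps, flanks, merging and gene models were tried. No test was run, since there was 1 library per mark.

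The members and lists were chosen with earlier results of these data known. Named are the 8 members, their nearest annotated genes, the genes touched by the nearest peaks, and up to 6 other listed genes, Toll, IMD and antimicrobial genes first. NOX5 and Vg were named as the matched genes of the pathway list. TEP1, LRIM1 and the APL1 names came from the study's candidate gene table, and TEP3, TEP4 and TEP15 from the list that selected the genes. The RefSeq gene table paired 0 rows with the files' identifiers, so other complement-like genes could not be named or listed. Any of them among the neighbours were counted under their identifiers only.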

Additional observations from a re-analysis of the deposited data

How the results depend on the processing

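No member carried H3K27ac under any of the settings tried, but these could hardly have given a member the mark. The smallest gap to H3K27ac was 5168 bp, at TEP15, and the widest flank tried was 5000 bp. The stricter settings only removed peaks or overlaps. With only peaks at or above the median score of their list, or only peaks of 2000 bp or longer, 3 members carried H3K27me3 (TEP3, TEP4 and TEP15) and 5 carried neither mark, while 21.3% and 22.7% of all genes carried H3K27me3. LRIM1 and APL1C lost their mark there, and the nearest remaining island of LRIM1 by score lay 170704 bp away. The share of TEP4 under H3K27me3 fell from 65.13% to 35.45% and the gap from TEP15 to H3K27ac rose from 5168 bp to 16253 bp under both settings. The gap from APL1A to H3K27me3 rose from 1699 bp to 7709 bp and 17699 bp, and that from APL1B to 22236 bp with the longer islands only. With at least 50% of the body required, 4 members were marked, without APL1C. With flanks of 5000 bp, 7 members carried H3K27me3 and 1 neither, since APL1A and APL1B then reached the islands next to them, and 49.6% of all genes were marked. Limits of 50000 bp and 200000 bp on the gap to H3K27ac, chosen after seeing the data, gave 7 and 4 members, against 13.3% and 2.76% of genes. Of the 64 shares of a gene body and 64 gaps recomputed, 6 and 16 moved. No paired analysis was possible because each mark had 1 library. Peaks called in 1 library, with no reads, do not show how far an island edge or an unmarked gene would vary between samples.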

Other observations

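An unannotated transcript of 1513 bp lay 3156 bp from TEP15 at 10056638 to 10058150 on chromosome 3R, and was under H3K27me3 over 100% of its length. Within 50 kb of TEP4, the member with the fewest annotated genes around it, there was 1 other annotated gene and 7 unannotated loci.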
